A study of Mus musculus with 16 samples.

Results

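The genes described here are the members of the vesicle fusion machinery whose mouse symbol begins with Syt and a digit, Sytl, Stx and a digit, Stxbp, Vamp, Snap and a digit, Unc13, Rims and a digit, Exoc or Cadps, with 2 pseudogenes left out. They are 79 of the 45513 genes counted: 8 VAMPs, 15 syntaxins, 5 SNAPs, 7 syntaxin-binding proteins, 17 synaptotagmins, 5 synaptotagmin-like proteins, 10 priming factors (Unc13, Rims and Cadps) and 12 genes of the exocyst and its kin. All are protein-coding, and their coordinates are those of the files, on GRCm38. They were measured by RNA sequencing of EpCAM+ epithelial cells of the mouse colon, sorted live into a tdTom+ and a tdTom− population from each of 8 mice, which gave 16 libraries. Both populations of a mouse share its genotype and treatment. The mice were Atoh1(WT)CreERT2; Rosa26tdTom/+, on a C57BL/6 background, of both sexes and 8 to 16 weeks old. An inducible CreERT2 lies downstream of the Atoh1 coding sequence on both alleles, so that tamoxifen switches on the tdTom reporter in Atoh1-expressing cells and in whatever these cells later give rise to. The labels and the methods on animals give 1 mg of tamoxifen daily on 3 days, whereas another passage of the methods states 3 mg and a 24 h wait. The tdTom− population therefore holds every other epithelial cell and any Atoh1-expressing cell that escaped recombination.

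A secretory vesicle fuses with its target membrane when a SNARE of the VAMP family on the vesicle zips together with a syntaxin and a SNAP on the target. Sec1/Munc18 proteins (the Stxbp genes) hold the syntaxin, and Unc13, Rims and Cadps proteins prime the vesicle. Some synaptotagmins, though not all, fire fusion when calcium rises. Synaptotagmin-like proteins bridge Rab-bearing granules to the membrane, and the exocyst tethers carriers from the Golgi and endosomes before fusion. In the colon, goblet cells store mucin in large granules and enteroendocrine cells store hormones in dense-core granules, while absorptive cells mostly deliver membrane to the cell surface.

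Total counts ran from 16482530 to 24218367 in the tdTom+ libraries and from 18318172 to 45791503 in the tdTom− libraries. The largest was the tdTom− library of mouse 4, and no other tdTom− library exceeded 20668605. It also had the lowest summed level among tdTom− libraries of the goblet, enteroendocrine, tuft and absorptive markers, so results that rest on it are given with and without it. Levels are in counts per 1e6 of the normalised library (CPM), at which a floor of 3 counts stood at 0.0583 to 0.194 CPM. Atoh1 (ENSMUSG00000073043, chr6:64729146-64731233), which drives the label, averaged 132 ± 19.3 CPM in tdTom+ against 5.70 ± 1.67 CPM in tdTom− libraries (SD, n = 8). The 10 goblet markers summed to 54084 to 111713 CPM in tdTom+ and 2576 to 9337 CPM in tdTom− libraries, and all 10 were higher in tdTom+ cells. The 16 enteroendocrine markers summed to 337 to 858 CPM in tdTom+ and 1496 to 4399 CPM in tdTom− libraries, with 14 lower, 1 higher and none at 0. All 10 absorptive markers were measured, 9 of them lower in tdTom+ cells, and their sums ran from 1233 to 1966 CPM against 7121 to 13947 CPM. Of 10 tuft markers 9 were tested and 7 were lower, with sums of 56.8 to 116 CPM against 107 to 179 CPM. Of 10 immune markers 7 were too rare to test. The sums of all 10 ran from 4.24 to 36.1 CPM in tdTom+ and from 17.4 to 94.7 CPM in tdTom− libraries.

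Of the 79 genes 59 had enough counts to be tested, and 41 of them differed between the populations, 21 higher and 20 lower in tdTom+ cells (edgeR quasi-likelihood test, Benjamini-Hochberg adjusted p under 0.01 over all 15841 genes tested). That is 69.5% of the members tested, where 51.0% of all genes tested passed, 25.5% higher and 25.5% lower. The fold change exceeded 2 for 11 members that were higher and 12 that were lower. Among all 15841 genes tested it did so for 1202 that were higher and 1451 that were lower. The median log2 fold change of the members tested, tdTom+ over tdTom−, was −0.05, and that of all genes was 0.00. In 16 members every tdTom+ library lay above every tdTom− library, and in 13 every tdTom− library lay above, where 15.2% and 15.3% of all genes tested did so. With mice as blocks 22 members were higher and 21 lower, and 57.2% of all genes passed. Within the series of mouse numbers, mice 1 to 3 gave 16 higher and 15 lower, and mice 5 to 8 gave 20 of each; mouse 4 is a series of its own with 1 library per population. Without the tdTom− library of mouse 4 the counts were 20 and 22. In bulk samples such as these, fewer cells of a type and less RNA per cell cannot be told apart.

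**Figure D1:**
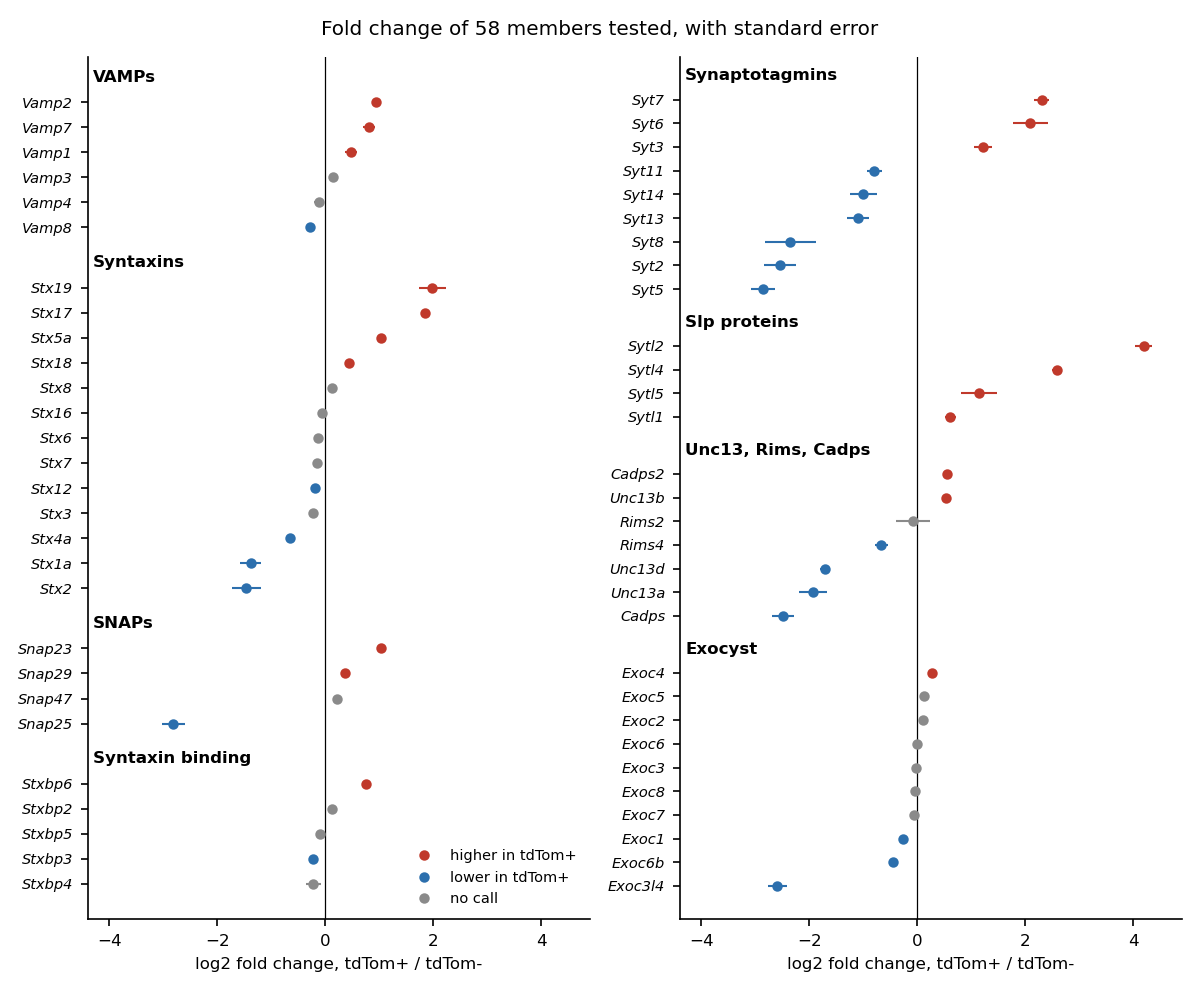
Log2 fold change of 58 of the members tested, tdTom+ over tdTom−, with its standard error (bars), by family, coloured by the edgeR call at an adjusted p of 0.01. The synaptotagmin-like proteins lie to the right, the synaptotagmins spread from −2.86 to 2.30, and the exocyst genes other than Exoc3l4 sit between −0.45 and 0.27.

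The promoters of members that moved most are shown because the label follows Atoh1, a basic helix-loop-helix factor that binds E-boxes. RefSeq promoter entries (GRCm38.p6) matched 62 of the 79 members by symbol. For members with a single entry among those given in full, the 250 bases before the start site are printed 5′ to 3′ for the largest rises, Sytl4 (chrX:133981813-133982062, minus strand) and Stx19 (chr16:62814426-62814675, plus strand), and the largest falls, Cadps (chr14:12823080-12823329, minus strand) and Unc13a (chr8:71671758-71672007, minus strand). Capitals mark the E-box letters CAGCTG, the same on both strands, and CATCTG, searched on both strands, 2 motifs that do not overlap.

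Sytl4: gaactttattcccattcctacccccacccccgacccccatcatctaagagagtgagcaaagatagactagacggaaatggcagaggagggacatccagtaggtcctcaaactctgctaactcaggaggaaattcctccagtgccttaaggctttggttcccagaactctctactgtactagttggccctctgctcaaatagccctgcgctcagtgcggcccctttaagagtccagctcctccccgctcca

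Stx19: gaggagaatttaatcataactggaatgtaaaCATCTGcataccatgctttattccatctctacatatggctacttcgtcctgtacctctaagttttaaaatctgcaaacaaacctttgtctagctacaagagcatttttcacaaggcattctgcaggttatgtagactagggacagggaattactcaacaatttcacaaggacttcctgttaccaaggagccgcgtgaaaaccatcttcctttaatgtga

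Cadps: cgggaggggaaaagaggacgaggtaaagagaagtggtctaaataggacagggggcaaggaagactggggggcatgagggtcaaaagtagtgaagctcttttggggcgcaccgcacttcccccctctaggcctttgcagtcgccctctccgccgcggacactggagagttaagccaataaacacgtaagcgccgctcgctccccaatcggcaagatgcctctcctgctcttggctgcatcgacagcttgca

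Unc13a: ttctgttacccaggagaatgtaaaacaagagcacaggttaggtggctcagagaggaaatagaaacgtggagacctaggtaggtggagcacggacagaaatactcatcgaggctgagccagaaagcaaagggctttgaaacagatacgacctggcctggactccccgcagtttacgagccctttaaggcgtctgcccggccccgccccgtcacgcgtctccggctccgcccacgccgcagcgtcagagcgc

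Among these only the Stx19 window held a match, CATCTG starting 219 bases before the start site. CAGCTG lay in this window of 3 of 16 members that rose, 3 of 15 that fell and 2 of 16 without a call, against 14.7% of the 27025 genes with a promoter entry. CATCTG lay in 1 of 16 that rose, 0 of 15 that fell and 2 of 16 without a call, against 16.3% of all genes. A match is a description of letters and not a binding site.

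The largest rise in the whole set was among the synaptotagmin-like proteins, the Slp family, which bind Rab27 on a granule and the plasma membrane through C2 domains. All 4 members tested rose in tdTom+ cells, where 25.5% of all genes tested did, with a median log2 fold change of 1.87. Sytl2 (ENSMUSG00000030616, chr7:90348699-90410439) ran from 226 to 270 CPM (median 239) in tdTom+ and from 8.48 to 20.6 CPM (median 11.5) in tdTom− libraries, without overlap. Its log2 fold change was 4.19 (SE 0.16, edgeR adjusted p = 1.22e-14), an 18.3-fold difference. The tdTom− libraries of mice 5 to 7 were the highest of their group, at 17.5 to 20.6 CPM, and the log2 fold change was 4.59 (SE 0.13) in mice 1 to 3 and 3.87 (SE 0.13) in mice 5 to 8.

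Sytl4 (ENSMUSG00000031255, chrX:133936385-133981812, promoter printed above), also called granuphilin and known for docking insulin granules, ranged over 56.2 to 80.3 CPM (median 64.4) in tdTom+ cells against 8.68 to 12.7 CPM (median 10.9). All 8 tdTom+ libraries lay far above the tdTom− libraries, with a log2 fold change of 2.59 (SE 0.09, edgeR adjusted p = 1.47e-15). Sytl1 (ENSMUSG00000028860, chr4:133253090-133263113) was the best expressed Slp gene per length over all 16 libraries, and was at 62.5 to 83.5 CPM (median 69.1) in tdTom+ and 34.7 to 66.9 CPM (median 47.4) in tdTom− cells. The groups overlapped but each mouse was higher in its tdTom+ library, with a log2 fold change of 0.61 (SE 0.10, edgeR adjusted p = 3.89e-05). Sytl5 rested on only 209 counts in all and rose in 7 of 8 mice, by 1.14 (SE 0.33, edgeR adjusted p = 0.0059) on the log2 scale. The call was lost without any one of mice 2, 3, 4, 6, 7 or 8 (log2 fold changes 0.97 to 1.17) and without the tdTom− library of mouse 4 alone (0.94, edgeR adjusted p = 0.0143). Sytl3 was not tested, with 133 counts.

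Per length, Sytl2 reached 35.3 ± 2.07 RPKM (CPM per kilobase of exon, SD, n = 8) in tdTom+ cells, beside 35.2 ± 3.99 for Vamp3, 33.3 ± 3.67 for Vamp8 and 31.8 ± 3.30 for Syt7, the other members above 30 RPKM there. The spreads of these 4 levels overlap. In tdTom− cells Sytl2 stood at 1.94 ± 0.680 RPKM, while Vamp8 at 40.4 ± 4.82 RPKM, Vamp3 at 32.0 ± 2.14 and the endosomal syntaxin Stx7 at 30.9 ± 2.12 led the set.

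The synaptotagmins divided. Of 17 genes 9 could be tested and all 9 were called, 3 higher and 6 lower, from −2.86 to 2.30 on the log2 scale. Over all genes tested 51.0% were called, 25.5% higher and 25.5% lower. Syt7 (ENSMUSG00000024743, chr19:10389090-10453181), a sensor of high calcium affinity known from lysosome and dense-core granule exocytosis, was the best expressed synaptotagmin per length. It stood at 185 to 253 CPM (median 227) in tdTom+ and 24.5 to 63.9 CPM (median 45.3) in tdTom− libraries. The lowest tdTom+ value lay far above the highest tdTom− value, and the log2 fold change was 2.30 (SE 0.14, edgeR adjusted p = 5.77e-12). Syt6 (ENSMUSG00000027849, chr3:103575231-103645569), known from the acrosome of sperm, was at 0.732 to 3.06 CPM (median 1.67) against 0.102 to 0.863 CPM (median 0.425). The groups touched at the edge, although each mouse was higher in tdTom+ cells, and the log2 fold change was 2.09 (SE 0.32, edgeR adjusted p = 9.22e-06), which did not pass the threshold in mice 1 to 3 alone (1.99, edgeR adjusted p = 0.0150). Syt3 was the remaining synaptotagmin that rose, with a log2 fold change of 1.22 (SE 0.17, edgeR adjusted p = 1.98e-06), and it too had no call in mice 1 to 3 alone (1.23, edgeR adjusted p = 0.0146).

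Among those that fell, Syt5 (ENSMUSG00000004961, chr7:4539768-4546567), a vesicle synaptotagmin, was at 0.306 to 0.901 CPM (median 0.616) in tdTom+ and 2.76 to 7.21 CPM (median 4.40) in tdTom− cells. No library overlapped, and the log2 fold change was −2.86 (SE 0.22, edgeR adjusted p = 4.69e-10), the largest fall of the 59 members tested. Syt4, too rare for the filter on counts, had 1 count in the tdTom+ and 22 counts in the tdTom− libraries, and was lower without that filter (edgeR adjusted p = 0.0030), with a fitted fold change that rests on the prior count. Syt2 (ENSMUSG00000026452, chr1:134646677-134762593), a fast sensor of neurons, was at 0.0542 to 0.518 CPM (median 0.238) against 0.913 to 2.28 CPM (median 1.60). Its tdTom+ values lay near the floor, and the log2 fold change was −2.54 (SE 0.30, edgeR adjusted p = 3.28e-07). Syt8 fell by 2.35 on the log2 scale, Syt13 by 1.10, Syt14 by 1.00 and Syt11 by 0.80. Of these, Syt14 did not pass the threshold with limma-voom (log2 fold change −0.85, adjusted p = 0.0126) or in mice 1 to 3 alone (−1.08, edgeR adjusted p = 0.0235). The 8 synaptotagmins without a test had from 23 counts (Syt4) to 265 (Syt12) over 16 libraries. Syt1, the main synaptotagmin of forebrain neurons, had 26, Syt9 77, Syt10 116, Syt15 42, Syt16 29 and Syt17 53.

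**Figure D2:**
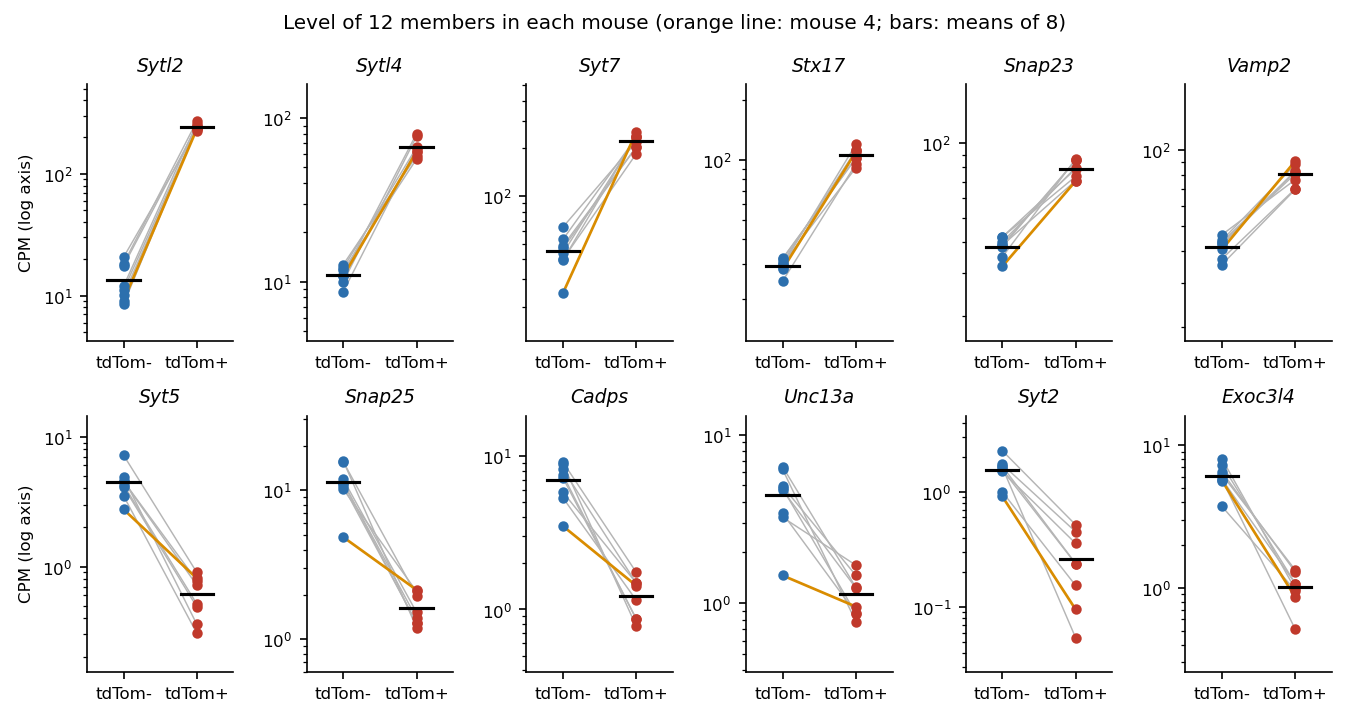
CPM (log axis) of 12 members in the tdTom− (blue) and tdTom+ (red) library of each of 8 mice, joined by a line per mouse, with group means as bars and mouse 4 in orange. The 6 genes of the upper row are higher and the 6 of the lower row are lower in the tdTom+ library of every mouse, and the orange line starts lowest for Syt7, Snap23, Syt5, Snap25, Cadps, Unc13a and Syt2.

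The SNAP family moved in opposite directions. Snap23 (ENSMUSG00000027287, chr2:120567671-120601255), the form found in most non-neuronal cells, was at 70.3 to 86.3 CPM (median 79.2) in tdTom+ and 31.8 to 41.8 CPM (median 38.7) in tdTom− cells. Every tdTom+ library was above every tdTom− library, and the log2 fold change was 1.04 (SE 0.07, edgeR adjusted p = 1.46e-11). Snap25 (ENSMUSG00000027273, chr2:136713453-136782428), the form of neurons and endocrine cells, was at 1.20 to 2.15 CPM (median 1.45) against 4.86 to 15.8 CPM (median 11.3). It was lower in tdTom+ cells without overlap, with a log2 fold change of −2.81 (SE 0.21, edgeR adjusted p = 2.57e-10). The lowest tdTom− value came from mouse 4, and without that library the log2 fold change was −2.93 (SE 0.15). Snap29 (ENSMUSG00000022765, chr16:17406003-17430826), which acts with Stx17 on autophagosomes, was at 42.1 to 49.4 CPM (median 45.3) against 32.5 to 38.2 CPM (median 35.1). Its groups were separate as well, at a log2 fold change of 0.37 (SE 0.05, edgeR adjusted p = 6.64e-07). Snap47 was higher in 8 of 8 mice, with a log2 fold change of 0.22 (SE 0.08, edgeR adjusted p = 0.0226), and passed the threshold with mice as blocks (0.22, SE 0.05, edgeR adjusted p = 0.0018). Snap91, which shares the symbol but encodes a clathrin assembly protein, had 49 counts.

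Of 13 syntaxins tested 4 were higher and 4 lower, or 30.8% each, near the 25.5% each of all genes tested. Stx17 (ENSMUSG00000061455, chr4:48124915-48186507), which mediates fusion of autophagosomes with lysosomes, was at 91.6 to 120 CPM (median 106) in tdTom+ and 24.6 to 32.0 CPM (median 29.8) in tdTom− cells. The populations were far apart, and the log2 fold change was 1.85 (SE 0.06, edgeR adjusted p = 2.87e-15). Stx19 (ENSMUSG00000047854, chr16:62814676-62824346), a syntaxin without a membrane-spanning segment, had the larger fold change at a low level, 2.69 to 6.40 CPM (median 3.32) against 0.380 to 1.63 CPM (median 0.931). It did not overlap either, and its log2 fold change was 1.98 (SE 0.25, edgeR adjusted p = 8.18e-07), or 2.66 (SE 0.36) in mice 1 to 3 and 1.51 (SE 0.30) in mice 5 to 8. The Golgi syntaxin Stx5a rose on the log2 scale by 1.03 (SE 0.06, edgeR adjusted p = 2.55e-12) and the syntaxin Stx18 of the endoplasmic reticulum by 0.45 (SE 0.06, edgeR adjusted p = 4.45e-06).

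Stx1a, Stx2, Stx3 and Stx4a, the classical syntaxins of the plasma membrane, did not rise. Stx1a (ENSMUSG00000007207, chr5:135023482-135051100), the neuronal partner of Snap25, was at 0.777 to 2.39 CPM (median 1.40) in tdTom+ and 3.13 to 5.38 CPM (median 3.52) in tdTom− libraries. It was lower in tdTom+ cells in every mouse and without overlap, with a log2 fold change of −1.38 (SE 0.20, edgeR adjusted p = 4.22e-06). Stx2 (ENSMUSG00000029428, chr5:128984557-129008574) was rarer still, at 0.238 to 0.763 CPM (median 0.436) against 0.702 to 1.88 CPM (median 1.34). Each mouse was lower in tdTom+ cells although the groups overlapped, and the log2 fold change was −1.46 (SE 0.27, edgeR adjusted p = 1.01e-04). The basolateral syntaxin Stx4a fell by 0.66 on the log2 scale (SE 0.07, edgeR adjusted p = 1.18e-07), and the apical syntaxin Stx3 was at −0.22 (SE 0.07, edgeR adjusted p = 0.0150). Stx7 (ENSMUSG00000019998, chr10:24149317-24188959), of late endosomes and the best expressed syntaxin per length, was at 64.0 to 77.4 CPM (median 69.1) in tdTom+ and 69.3 to 86.5 CPM (median 76.4) in tdTom− libraries. The groups overlapped widely. Its log2 fold change of −0.16 (SE 0.05, edgeR adjusted p = 0.0115) missed the threshold, but not when mice were blocked (−0.16, SE 0.05, edgeR adjusted p = 0.0053). Stx12, of recycling endosomes, fell by 0.18 on the log2 scale, and lost its call without any one of mice 2, 3, 5 or 6. Stx6, Stx8 and Stx16 were between −0.13 and 0.12 without a call, and Stx11 was not tested, with 51 counts.

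Among vesicle SNAREs Vamp2, Vamp7 and Vamp1 rose. Vamp2 (ENSMUSG00000020894, chr11:69088490-69092384), or synaptobrevin, was at 70.0 to 90.6 CPM (median 81.5) in tdTom+ and 35.4 to 46.4 CPM (median 42.6) in tdTom− cells. It separated the populations completely, with a log2 fold change of 0.95 (SE 0.07, edgeR adjusted p = 8.66e-11). Vamp7 (ENSMUSG00000051412, scaffold GL456233.1:10738-39148 in the files), which serves lysosomes and apical delivery, was at 39.7 to 64.1 CPM (median 50.3) against 20.2 to 37.1 CPM (median 28.9). It was also separate, with a log2 fold change of 0.82 (SE 0.11, edgeR adjusted p = 1.71e-06). Vamp8 (ENSMUSG00000050732, chr6:72385223-72390703), a SNARE known from exocytosis of zymogen and mucin granules and the best expressed member per length, went the other way. It was at 65.0 to 86.6 CPM (median 79.8) in tdTom+ and 73.2 to 108 CPM (median 94.3) in tdTom− cells, overlapping but lower in 8 of 8 mice. The log2 fold change was −0.28 (SE 0.08, edgeR adjusted p = 0.0048), and the call was lost without mouse 1, 5, 7 or 8 (−0.22 to −0.29). With mice as blocks Vamp8 was lower as well (−0.28, SE 0.06, edgeR adjusted p = 5.16e-04). Vamp1 rose by 0.48 (SE 0.11, edgeR adjusted p = 9.20e-04) on the log2 scale, in 7 of 8 mice. Vamp3 at 0.14 and Vamp4 at −0.11 had no call, and Vamp5 and Vamp9 were not tested, with 203 counts and 1 count.

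Of the Sec1/Munc18 proteins Stxbp2 (ENSMUSG00000004626, chr8:3630955-3643644), the Munc18 of epithelial and blood cells, had the highest level per length in its group, 109 to 136 CPM (median 118) against 101 to 119 CPM (median 111). The groups overlapped and the log2 fold change of 0.12 (SE 0.06, edgeR adjusted p = 0.0720) gave no call, while blocking on mouse and correcting for GC and length gave 0.17 (edgeR adjusted p = 0.0015). Stxbp3 (ENSMUSG00000027882, chr3:108793176-108840526), the ubiquitous form, was at 36.4 to 42.4 CPM (median 40.2) against 44.8 to 49.7 CPM (median 46.1). It was lower without overlap but by little, with a log2 fold change of −0.22 (SE 0.04, edgeR adjusted p = 2.48e-04), and had no call in mice 1 to 3 (adjusted p = 0.0870) or mice 5 to 8 (adjusted p = 0.0151, both edgeR). Stxbp6 (ENSMUSG00000046314, chr12:44852488-45074493), or amisyn, which carries a VAMP-like SNARE motif, was at 40.7 to 52.9 CPM (median 46.3) against 24.9 to 30.2 CPM (median 27.4). It was higher in all tdTom+ libraries, with a log2 fold change of 0.75 (SE 0.06, edgeR adjusted p = 1.67e-09). Stxbp4 and Stxbp5 had no call at −0.22 and −0.10, and Stxbp5l was not tested, with 118 counts.

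The priming factors split between genes of the same family. Cadps (ENSMUSG00000054423, chr14:12372563-12823079), which primes dense-core granules, was at 0.777 to 1.75 CPM (median 1.29) in tdTom+ and 3.50 to 9.14 CPM (median 7.39) in tdTom− cells. All tdTom− libraries were higher, and the log2 fold change was −2.49 (SE 0.21, edgeR adjusted p = 1.61e-09). Its relative Cadps2 (ENSMUSG00000017978, chr6:23262773-23839421) was at 53.5 to 76.9 CPM (median 68.4) against 41.2 to 51.2 CPM (median 46.0). It was higher in every tdTom+ library, with a log2 fold change of 0.55 (SE 0.07, edgeR adjusted p = 1.43e-06). Unc13a (ENSMUSG00000034799, chr8:71624417-71671757), the Munc13 of most excitatory synapses, was at 0.777 to 1.68 CPM (median 1.09) against 1.46 to 6.45 CPM (median 4.74). It was lower in every mouse, with overlap through the tdTom− library of mouse 4, and the log2 fold change was −1.94 (SE 0.26, edgeR adjusted p = 1.60e-06), or −2.09 (SE 0.19) without that library. Unc13b (ENSMUSG00000028456, chr4:43058953-43264871), a Munc13 also found outside neurons, was at 60.7 to 79.2 CPM (median 68.2) against 40.4 to 60.2 CPM (median 46.5). The groups came close without touching, and the log2 fold change was 0.53 (SE 0.08, edgeR adjusted p = 4.36e-06). Unc13d, the Munc13 of cytotoxic granules, fell by 1.71 on the log2 scale (SE 0.10, edgeR adjusted p = 7.09e-12), from 19.9 ± 2.95 to 6.07 ± 0.855 CPM, and Rims4 fell by 0.67. Rims2 had no call, at −0.08 (SE 0.31, edgeR adjusted p = 0.8389), and Rims1, Rims3 and Unc13c were not tested, with 30, 63 and 10 counts.

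Several members known from neurons and endocrine cells, Snap25, Stx1a, Syt5, Syt2, Cadps and Unc13a, fell beside the enteroendocrine markers, whose sums are given above. Among these markers Chga went from 746 ± 251 CPM in tdTom− to 93.6 ± 31.2 CPM in tdTom+ cells (SD, n = 8). Syp went from 7.64 ± 2.19 to 1.88 ± 0.538 CPM. The 16 markers had a median log2 fold change of −1.64, and they did not all fall. Neurog3 rose by 1.58 on the log2 scale (SE 0.36, edgeR adjusted p = 7.48e-04). Sst had no call, at −0.55 (SE 0.33, edgeR adjusted p = 0.1576), but was lower with mice as blocks (edgeR adjusted p = 4.15e-05). The tdTom− library of mouse 4 was the lowest of its group for the enteroendocrine sum, at 1496 CPM, and for the goblet, tuft and absorptive sums. It was also the lowest for Snap25, Syt5, Syt2, Cadps and Unc13a, and for Snap23 and Syt7, which rose in tdTom+ cells. Others that are also known from neurons or endocrine cells rose, with log2 fold changes of 2.59 for Sytl4, 2.30 for Syt7 and 0.95 for Vamp2. Both groups of genes were put together after their values were seen, and the part of enteroendocrine cells in the result was not tested. Unc13d and Syt8 fell too, and most of the absorptive, tuft and enteroendocrine markers were lower alike. Of 8 stem markers 7 were tested, 5 lower and 1 higher, with a median log2 fold change of −0.32. Of 8 proliferation markers 4 were lower and none higher (median −0.38), and 7 were lower with mice as blocks. Of 10 stroma and nerve markers 4 were tested. Uchl1 fell by 3.10 and Pecam1 by 1.58 on the log2 scale, and 2 had no call. Of the 3 immune markers tested Ptprc fell, from 6.23 ± 1.91 CPM in tdTom− to 2.17 ± 0.641 CPM in tdTom+ libraries. Lyz2 and Cd74 had no call in the main fit (edgeR adjusted p = 0.0108 and 0.0142). Both were lower in tdTom+ cells in 8 of 8 mice, and lower with mice as blocks (edgeR adjusted p = 1.62e-06 and 7.51e-09). The part of absorptive, tuft, stem, dividing, stromal, nerve and immune cells in the result was not tested either.

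Expressed per length, the balance within most pairs of like genes differed between populations without overlap. Snap25 made up 1.29 ± 0.374% of the summed RPKM of Snap25 and Snap23 in tdTom+ and 15.7 ± 4.12% in tdTom− cells (SD, n = 8). Cadps took 3.05 ± 0.931% of the Cadps pair against 20.5 ± 5.30%. Within the Munc13 genes, Unc13a took 1.79 ± 0.652% of its sum with Unc13b against 8.96 ± 3.01%, and Unc13d 20.4 ± 2.47% of its sum with Unc13b against 54.7 ± 3.32%. Syt5 fell from 28.5 ± 4.04% to 1.10 ± 0.415% of its sum with Syt7. Vamp2 made up 38.9 ± 4.56% beside Vamp8 in tdTom+ and 21.4 ± 2.33% in tdTom− cells. Sytl2 held 55.5 ± 3.20% of its sum with Sytl1 against 9.40 ± 2.38%. Stx1a was at 5.67 ± 2.08% of its sum with Stx3 against 11.8 ± 1.97%, without overlap. Stx4a was at 57.6 ± 4.79% of its sum with Stx3 against 65.1 ± 3.32%, and for this share alone the populations overlapped. The pairs were chosen after the values were seen, so the shares are a description without a test.

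**Figure D3:**
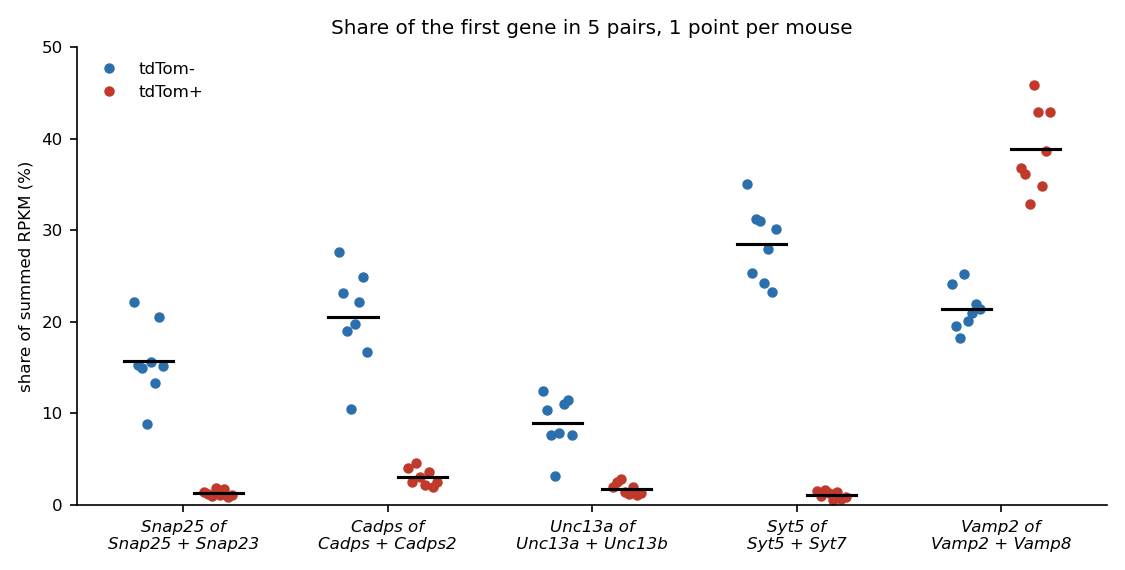
Share (%) of the first gene in the summed RPKM of 5 pairs, with 1 point per mouse, tdTom− in blue and tdTom+ in red, and group means as bars. The shares of Snap25, Cadps, Unc13a and Syt5 lie lower in tdTom+ cells and that of Vamp2 higher, with no overlap between populations.

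The exocyst subunits changed little. All 9 subunit genes were tested, and their log2 fold changes lay between −0.45 and 0.27, with 1 higher, 2 lower and 6 without a call. That is 33.3% called, where 51.0% of all genes tested were. Exoc4 (ENSMUSG00000029763, chr6:33249085-33973979), or Sec8, was at 43.7 to 62.4 CPM (median 52.7) in tdTom+ and 37.3 to 52.4 CPM (median 43.1) in tdTom− libraries. The groups overlapped, and the log2 fold change was 0.27 (SE 0.08, edgeR adjusted p = 0.0039), which was lost without mouse 6 (0.26, edgeR adjusted p = 0.0120). Exoc6b (ENSMUSG00000033769, chr6:84618487-85069513), one of a pair of Sec15 genes, was at 26.7 to 36.6 CPM (median 31.7) against 39.9 to 47.0 CPM (median 43.4). It did not overlap and fell by 0.45 on the log2 scale (SE 0.06, edgeR adjusted p = 3.87e-06), whereas the other Sec15 gene, Exoc6, was at 0.00 (SE 0.07, edgeR adjusted p = 0.9902). Exoc1 fell by 0.26. Exoc7 (ENSMUSG00000020792, chr11:116288001-116307233), or Exo70, which binds the plasma membrane and had the highest level per length of the exocyst genes, was at 42.8 to 52.0 CPM (median 45.7) against 46.9 to 51.7 CPM (median 48.7). It overlapped widely, and its log2 fold change was −0.07 (SE 0.05, edgeR adjusted p = 0.2075). Exoc2, Exoc3, Exoc5 and Exoc8 were between −0.05 and 0.13 without a call. A missed threshold does not show that these levels were alike.

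Exoc3l4 (ENSMUSG00000021280, chr12:111417430-111431182), a relative of the Sec6 subunit outside the complex as commonly drawn, fell further. It was at 0.511 to 1.33 CPM (median 1.02) in tdTom+ and 3.71 to 7.98 CPM (median 5.97) in tdTom− libraries. There was no overlap, and the log2 fold change was −2.59 (SE 0.17, edgeR adjusted p = 4.07e-11). Exoc3l and Exoc3l2 were not tested, with 50 and 34 counts.

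The members that rose were on the whole better expressed than those that fell. The mean of the population means had a median of 40.4 CPM over the 21 that rose, 5.32 CPM over the 20 that fell and 31.3 CPM over the 18 without a call. Of the 14 members under 5 CPM in both populations 4 rose and 8 fell, and of the other 45 members 17 rose and 12 fell. A gene of low level passes the filter on counts more easily where 1 population has a high level, so these counts are a description of the genes tested. The same split by level was not made over all genes, so it is not known to be particular to these members.

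**Figure D4:**
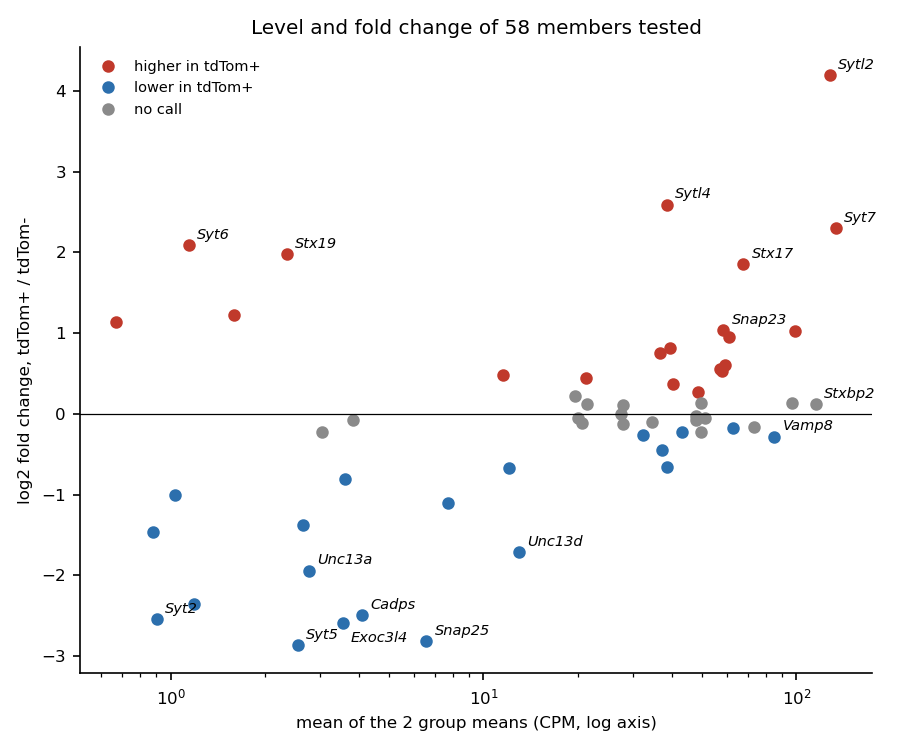
Mean of the tdTom+ and tdTom− mean levels (CPM, log axis) of 58 of the members tested against their log2 fold change, coloured by call. Sytl2, Syt7, Sytl4 and Stx17 combine a high level with a large rise, and Snap25, Syt5, Cadps and Exoc3l4 lie below 10 CPM and are among the largest falls.

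Genes of the same machinery that the symbols leave out were read from the same fit. Of 51 listed 42 were tested, 27 higher (64.3%) and 7 lower (16.7%) in tdTom+ cells. Over all genes tested 25.5% were higher and 25.5% lower. The median log2 fold change of the listed genes was 0.39, and that of all genes 0.00. The lists were drawn up with earlier results of these data known, so their counts are a description. The 12 other SNAREs, which mostly serve traffic between the endoplasmic reticulum, the Golgi and endosomes, held 10 that rose and none that fell, led by the early secretory SNAREs Bet1 at 1.32 (SE 0.07, edgeR adjusted p = 8.48e-13) and Sec22b at 1.28 (SE 0.06, edgeR adjusted p = 2.61e-13). Among 9 genes for SNARE recycling and Sec1/Munc18 kin 7 rose and none fell, the largest being Scfd1, the partner of the Golgi syntaxin, at 1.03 (SE 0.06, edgeR adjusted p = 6.46e-12) and Scfd2 at 0.84 (SE 0.09, edgeR adjusted p = 1.36e-07). Nsf, the ATPase that pulls spent SNAREs apart, rose on the log2 scale by 0.40 (SE 0.08, edgeR adjusted p = 1.10e-04).

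Of 13 complexins, Doc2 proteins, ferlins and other calcium sensors 8 had too few counts to test, and of the 5 tested 1 was higher and 3 were lower, with a median log2 fold change of −0.79. Rph3al, a Rab effector also called Noc2, rose and had a log2 fold change of 0.72 (SE 0.10, edgeR adjusted p = 1.44e-06). Baiap3, a relative of the Munc13 proteins, fell by 0.97 on the log2 scale (SE 0.21, edgeR adjusted p = 3.60e-04). Complexin Cplx2 fell by 0.79 on the log2 scale (SE 0.15, edgeR adjusted p = 8.97e-05) and the ferlin Myof by 0.88 (SE 0.14, edgeR adjusted p = 1.35e-05). Of 17 secretory Rabs and tethering partners 16 were tested, 9 higher and 4 lower. The largest rises were those of Myrip, which links Rab27 to myosin, at 4.85 (SE 0.30, edgeR adjusted p = 1.58e-11), and Rab37, a granule Rab, at 2.90 (SE 0.25, edgeR adjusted p = 2.88e-09). The largest falls were those of Myo5b, the motor of apical recycling, by 0.79 (SE 0.07, edgeR adjusted p = 3.39e-09) and Rab3c, a Rab of regulated secretion, by 0.71 (SE 0.18, edgeR adjusted p = 0.0020). Rab27a and Rab27b, to which Slp proteins bind and which are named after their values were seen, rose beside the Slp genes, with log2 fold changes of 2.87 (SE 0.13, edgeR adjusted p = 6.54e-14) and 2.26 (SE 0.08, edgeR adjusted p = 3.94e-15).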

How the data were processed

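RNA of EpCAM+ tdTom+ and EpCAM+ tdTom− colon cells of 8 mice was sequenced by the study as stranded mRNA libraries. Per the labels and file headers, reads were aligned to GRCm38.p3 with TopHat2 2.1.1 and counted on exons of the reverse strand, primary alignments only, by featureCounts (Subread 1.5.2 in the processing notes, 1.5.0-p1 in the headers). The authors deposited raw counts for each of 45513 genes without normalization.

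Symbols came from GENCODE M21 for 44671 IDs, and 842 had none. The members and gene lists were chosen with earlier results of these data known. Counts were compared across all genes in R 4.3.3 with edgeR 4.0.16 (filterByExpr, TMM, glmQLFit, glmQLFTest, no mouse term, Benjamini-Hochberg adjusted p under 0.01). The standard error is the log2 fold change over the square root of F. CPM used TMM library sizes, log2 CPM a prior count of 2, and RPKM the exon length in the files. Named in full were, per family, up to 2 members in each direction with the largest change in 8 of 8 mice, and the member with the highest RPKM. The values of 2 members, kept in the counts, are not reported here. Alternatives were mice as blocks, blocks with splines of 5 degrees of freedom for GC content and length, DESeq2 1.42.0, limma-voom (limma 3.58.1), RLE and upper-quartile normalization, no filter, at least 10 counts in every library, an adjusted p of 0.05, each mouse left out, mice 1 to 3 or 5 to 8 only, and the tdTom− library of mouse 4 left out. Libraries of a mouse pair by its number in the labels, and deviated together (correlation 0.223 to 0.408 within a mouse, at most 0.168 between mice). No libraries of a group agreed within sampling noise. Floors cover counting error only. The fits were tested on simulated counts. Summaries used Python 3.11.15, pandas 2.3.3 and numpy 2.4.6. The study's small intestinal libraries are not analysed here.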

Additional observations from a re-analysis of the deposited data

Results flagged for a closer look

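In 4 of 60 groups of 8 libraries, a single library lay far enough from the others to pass Dixon's test at the 95% level, where chance passes about 1 in 20 groups, or 3.0 of 60. The tdTom− library of mouse 4 was the low one for 2 genes. Snap25 was at 2.31 log2 CPM there and at 3.36 to 3.99 in the other tdTom− libraries. Unc13a was at 0.63 log2 CPM against 1.73 to 2.71. This library also had the most counts, 45791503, and the lowest enteroendocrine marker sum of its group, 1496 CPM. Its goblet, tuft and absorptive marker sums were the lowest of the group as well, at 2576, 107 and 7121 CPM, as was its stroma and nerve sum. The part of the depth or of any of these sums was not tested. Exoc3l4 was low in the tdTom+ library of mouse 5, at −0.73 log2 CPM against −0.07 to 0.51, and in the tdTom− library of mouse 7, at 1.93 log2 CPM against 2.51 to 3.01.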

How the results depend on the processing

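Over 20 alternatives for the 29 named members, 554 of 574 values stayed as they were in direction and call. Of the other values 10 lost a call, 10 gained one and 0 reversed. The lost calls were those of Vamp8, Exoc4, Stxbp3 and Syt6, and the gained ones those of Stx7 and Stxbp2. Most named members were chosen for a large change in these same data, and 26 had a call in the main fit. Their steadiness was thus partly fixed by the choice, and the tally leaves out the other members. The alternative with an adjusted p of 0.05 was the main fit at a looser threshold and could not lose a call. With mice 1 to 3 only, Vamp1, Stx12, Syt3, Syt14, Sytl5, Rims4 and Exoc1 also had no call (edgeR adjusted p = 0.1072, 0.0537, 0.0146, 0.0235, 0.1411, 0.0134 and 0.1011). Stx12 and Sytl5 had none with mice 5 to 8 only either (edgeR adjusted p = 0.0600 and 0.0404). Stx12 also lost its call without the filter on low counts (edgeR adjusted p = 0.0188). With mice 1 to 3 only, 2546 genes of all were higher, 2559 lower and 4 of the related genes lower. Leaving out 1 mouse gave 19 to 21 members higher and 18 to 20 lower. Over the other alternatives the counts ran from 16 to 24 higher and from 15 to 26 lower, the highest lower count being that without the filter on low counts. The replicate block by mouse (22 higher, 21 lower) changed the calls of Stx7 and Snap47 and of no other member. No scaling moved the median of all genes by more than 0.03 (log2). The cause of these differences was not tested. Errors are wide for genes near the floor of 3 counts. Reads shared by close paralogs may be lost or split in the authors' counting.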

Other observations

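Some members were too rare for the filter on counts yet differed in every mouse. Without the filter, Syt10 was higher in tdTom+ cells (log2 fold change 3.82, SE 0.53, edgeR adjusted p = 1.67e-06), on 107 counts in 8 tdTom+ libraries and 9 counts in 8 tdTom− libraries. Exoc3l2 had 32 counts in tdTom+ and 2 counts in tdTom− libraries. In the other direction Syt12 had 44 against 221 counts, Vamp5 47 against 156, Sytl3 16 against 117 and Stx11 10 against 41, each lower in the tdTom+ library of 8 of 8 mice and each called without the filter (edgeR adjusted p from 4.54e-05 to 0.0055). Sytl3 was thus the Slp gene that went against the others of its family. These genes were picked after their values were seen.

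Rims2 (ENSMUSG00000037386, chr15:39198332-39681940), an active-zone organiser, varied with the mouse. In mice 3 and 7 it was at 1.55 and 1.32 CPM in tdTom+ and 1.22 and 1.52 CPM in tdTom− cells, while the other 6 mice ran from 3.36 to 5.96 CPM in tdTom+ and from 3.17 to 5.89 CPM in tdTom− cells. Syt8 (ENSMUSG00000031098, chr7:142434850-142440396) differed between the series of mouse numbers in tdTom− cells, at 0.812 to 1.11 CPM in mice 1 to 4 and 1.72 to 5.34 CPM in mice 5 to 8. Its tdTom+ libraries ran from 0 to 0.664 CPM over all 8 mice. Both genes were picked after their values were seen, and neither difference was tested.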
